A study of Homo sapiens with 10 samples.

Results

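The unedited GIST-T1 transcriptome was described by level from the control libraries of a series, which are 2 of its 10 RNA-sequencing libraries. GIST-T1 is an established human line that was grown from a metastasis of a gastrointestinal stromal tumour (GIST), a tumour of the gut wall. The study examined gene expression after loss of CTCF insulators, boundaries between chromosome loops, in these cells, whose succinate dehydrogenase (SDH) is stated to be intact. It holds 2 control libraries and 8 libraries of the 4 derivative lines InsE, InsF, InsG and InsH, which were compared with nothing here except for the spread between their replicates. The members were taken by their label, control with the genotype WT, and no measured value chose them. The labels name no allele, editing reagent or drug for the control cells, and do not say whether the libraries came from separate cultures, so the spread between them may be technical. Polyadenylated RNA was sequenced, and each library has 1 table of expected counts (estimated fragments per gene) and TPM, in which a gene's share of all transcripts is corrected for its length and scaled to the same total in every library.

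GISTs resemble the interstitial cells of Cajal, the pacemaker cells of gut muscle, which depend on the receptor tyrosine kinase KIT and conduct their slow waves through the calcium-activated chloride channel ANO1. Most GISTs carry an activating change in KIT or PDGFRA, and the transcription factors ETV1 and FOXF1 maintain the lineage programme, KIT included. In GISTs that lack SDH, fibroblast growth factor (FGF) genes at 11q13 have been reported to be active.

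The libraries held 30.8 and 20.1 M (mega) expected counts in replicates 1 and 2, and 21794 and 20714 genes had a count. Of 19863 protein-coding genes, 11338 (57.1%) reached 1 TPM in both libraries, and 4792 (24.1%) had 0 counts in both. A count of 0 in the 50.9 M counts of both libraries allows a level of up to 3 counts, or 0.059 CPM (counts scaled by library size), which covers counting error only. Here a gene is called detected at 1 TPM or more in both libraries and silent at 0 counts in both. Over all 58381 gene rows, 13070 (22.4%) were detected, among them 949 of 14625 long non-coding RNA genes and 657 of 15187 pseudogenes. The median protein-coding gene stood at 4.05 TPM and the median detected one at 23.7 TPM. A mean of 1000 TPM or more was reached by 126 protein-coding genes, which held 32.7% of all TPM, and 1544 genes between 100 and 1000 TPM held another 36.1%. In bulk RNA, fewer cells with a transcript and less of it per cell cannot be told apart, so each level is a mean over the culture.

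The control libraries differed from each other by little more than counting error. Across protein-coding genes, log2(TPM + 1) correlated with Pearson's r = 0.998 and Spearman's rho = 0.987, given as a description across genes, which are not independent replicates. Of 9648 protein-coding genes at a mean of 5 TPM or more, 77.4% agreed within 1.1-fold and 95.6% within 1.25-fold. The median difference was 12.4% for protein-coding genes between 1 and 10 TPM, 4.72% between 10 and 100 TPM, 2.44% between 100 and 1000 TPM and 1.37% at 1000 TPM or more. Over the 8913 genes with whole counts in both libraries and at least 20 counts, the squared deviation from equal shares averaged 1.12 times its counting variance. The same index was 4.48 to 5.53 in the pairs of the 4 insulator lines. The excess over 1 was small but present, with 6.13% of genes outside the 95% counting range, so the libraries were kept as 2 samples. Over all 14678 genes with at least 20 counts, rounded to whole numbers, the index was 1.39 with 8.01% outside. An SD with n = 2 below is of TPM, which also carries the length assigned to each gene in each library, and need not include the spread between cultures.

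**Figure D1:**
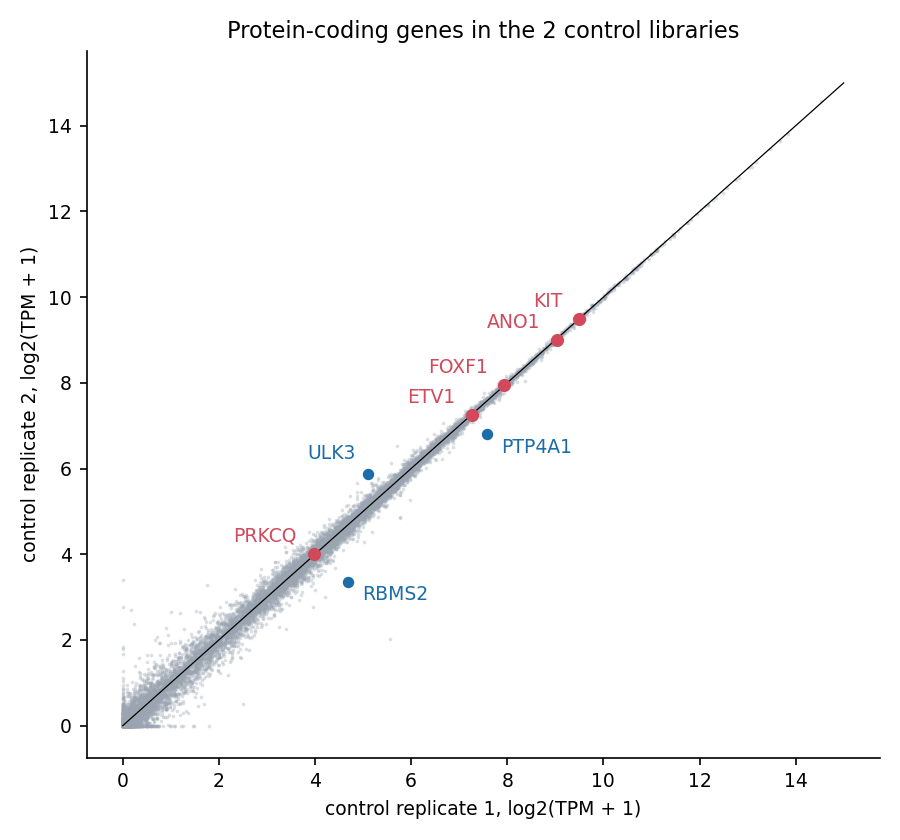
Level of each protein-coding gene in control replicate 1 (x axis) and replicate 2 (y axis), both log2(TPM + 1), with the line of equal level. Points are genes, the 5 markers in red lie on the line, and 3 of the genes with the largest differences are in blue, among them RBMS2 at 24.6 and 9.3 TPM.

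Few genes differed between the libraries. At a mean of 5 TPM or more, 74 of 10395 genes (0.712%) differed over 2-fold on the log2(TPM + 1) scale, 42 higher in replicate 2 and 32 higher in replicate 1. Of these, 58 were small RNA genes or pseudogenes and 65 had under 50 counts in both libraries together. Among protein-coding genes 6 (0.0622%) did so, 1 higher in replicate 2 and 5 in replicate 1. RBMS2, an RNA-binding protein gene, had 24.6 and 9.3 TPM from 1009 and 628 expected counts. In CPM its ratio of replicate 2 to replicate 1 was 0.954 (exact 95% counting interval 0.863 to 1.06), while the length assigned to the gene was 2213 bases in replicate 1 and 5307 in replicate 2. PTP4A1, a phosphatase gene, had 189 and 111 TPM with a ratio of 1.00 in CPM (0.956 to 1.05) and lengths of 1327 and 2179 bases. ULK3, a kinase gene, had 33.3 and 57.8 TPM with a ratio of 0.964 in CPM (0.883 to 1.05). Of the 20 protein-coding genes with the largest differences, 10 in each direction, 12 lay within 1.25-fold in CPM. The others included near-identical histone copies, such as HIST2H2AA4 at 2.37 and 8.66 TPM from 57 counts in all. Of the 74 genes, 70 were over 2-fold apart in CPM too when no pseudocount was added, but 2 had a mean of 5 CPM or more. Among the 10598 genes at 5 CPM or more, a set that leaves out most of the 74, 1 differed over 2-fold with a pseudocount of 1.

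The highest genes were those of protein synthesis, the cytoskeleton and mitochondria, with a few others. The 13 mitochondrially encoded protein genes ran from 2766 to 24171 TPM in the mean, and all mitochondrial genes held 12.3% of TPM and 4.19% and 4.13% of counts. MT-ATP8, the highest, had 23739.7 and 24602 TPM from 25674 counts, whereas MT-ND4 had 8692 and 8457 TPM from 336183 counts, so the rank of short genes depends on the length correction. Ribosomal protein genes held 11.3% of TPM in both libraries, and 44 of the 100 highest nuclear genes were of that class. The first nuclear gene was BCYRN1, a short brain cytoplasmic RNA, at 10215 and 10578 TPM from 5819 counts in replicate 1. H19, an imprinted long non-coding RNA, followed with 7559 and 7632 TPM from 407022 counts in both libraries. TMSB4X, which binds actin monomers, had 6885 and 6865 TPM, and the elongation factor gene EEF1A1 had 6054 and 6002 TPM. Among the first 20 were also ACTB at 4443 and 4448 TPM, the ferritin heavy chain gene FTH1 at 4202 and 4192 TPM and GAPDH at 2676 and 2622 TPM. PLAT, which encodes tissue plasminogen activator, a secreted protease, ranked 12th with 3411 and 3403 TPM. Several of these genes, among them EEF1A1, FTH1, NPM1, PPIA and the ribosomal protein genes, have near-identical copies, and their values depend on how RSEM split the reads.

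XCL1 and APP, chosen after their values were seen, stood a little lower. XCL1, a chemokine gene, had 2231 and 2204 TPM and its near-identical neighbour XCL2 had 270.2 and 250.2 TPM, so the split between them is uncertain. APP, the amyloid precursor gene, had 2182 and 2147 TPM. The highest long non-coding RNAs after H19 were AC132217.4 at 1354 and 1431 TPM, SNHG5 at 763 and 778 TPM, RP11-138I1.4 at 506 and 527 TPM, FENDRR at 463 and 450.0 TPM and LRRC75A-AS1 at 440.1 and 452 TPM. AC132217.4 lies within IGF2 on the same strand, and RP11-138I1.4 lies within UBB on the opposite strand. Their reads may therefore be those of IGF2, at 1415 and 1388 TPM, and of UBB, at 1922 and 1934 TPM. FENDRR is the divergent neighbour of FOXF1, and FOXF1 was at 245 and 246 TPM. Both genes of that pair were thus well above the median of detected genes.

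All 5 identity genes of GIST that served to check the label were detected, 4 of them over 100 TPM. KIT (chromosome 4, 54657918 to 54740715, plus strand) had 724 and 716 TPM (mean 719.8 ± 5.24, SD, n = 2), which placed it first among receptor tyrosine kinases. ANO1 (chromosome 11, 70078302 to 70189528, plus strand) had 520.1 and 508 TPM (mean 514 ± 8.88), first among the channel genes listed. FOXF1 (chromosome 16, 86510527 to 86515418, plus strand), a forkhead factor of gut mesenchyme, had a mean of 245 ± 1.09 TPM. ETV1 (chromosome 7, 13891228 to 13991425, minus strand), the ETS factor of the lineage, had 154 and 151 TPM (mean 152 ± 1.85). PRKCQ (chromosome 10, 6427143 to 6580301, minus strand), protein kinase C theta and a diagnostic marker of GIST, had 14.7 and 15 TPM (mean 14.8 ± 0.212), the lowest of the 5 and still above 1 TPM. Positions are from GENCODE release 29 on hg38.

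Of 16 further markers of GIST or interstitial cells, 12 were detected, and 6 stood at 100 TPM or more in both libraries, against 8.22% of protein-coding genes. CD34, a sialomucin used in GIST diagnosis, was the highest marker at 1706 and 1710.1 TPM, and PROM1, a stem cell glycoprotein, had 414 and 417 TPM. The genes of nitric oxide response were present: GUCY1B3 (now GUCY1B1) had 164 and 167 TPM and GUCY1A3 (now GUCY1A1) had 83.7 and 82 TPM, the subunits of soluble guanylate cyclase, and the phosphodiesterase gene PDE3A had 107 and 107 TPM. GPR20, an orphan receptor, had 102 and 106 TPM. The transcription factor HAND1 had 131 and 129.5 TPM and BARX1, a stomach mesenchyme factor, had 19.4 and 20.7 TPM. BCHE, a cholinesterase gene, had 55.2 and 53.1 TPM, LRIG1, a regulator of receptor kinases, had 50.7 and 49.7 TPM, and the hyaluronan receptor CD44 had 22.6 and 28.9 TPM. CACNA1H, a T-type calcium channel, had 6.3 and 6.47 TPM. Below detection were PRUNE2 at 0.36 and 0.13 TPM and the matrix protein gene THBS4 at 0.14 and 0.29 TPM. EDNRB and the gap junction gene GJA1 had 0 counts. Over the 17 detected markers, the 2 values of each gene lay apart from those of the next in all 16 steps of the order.

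**Figure D2:**
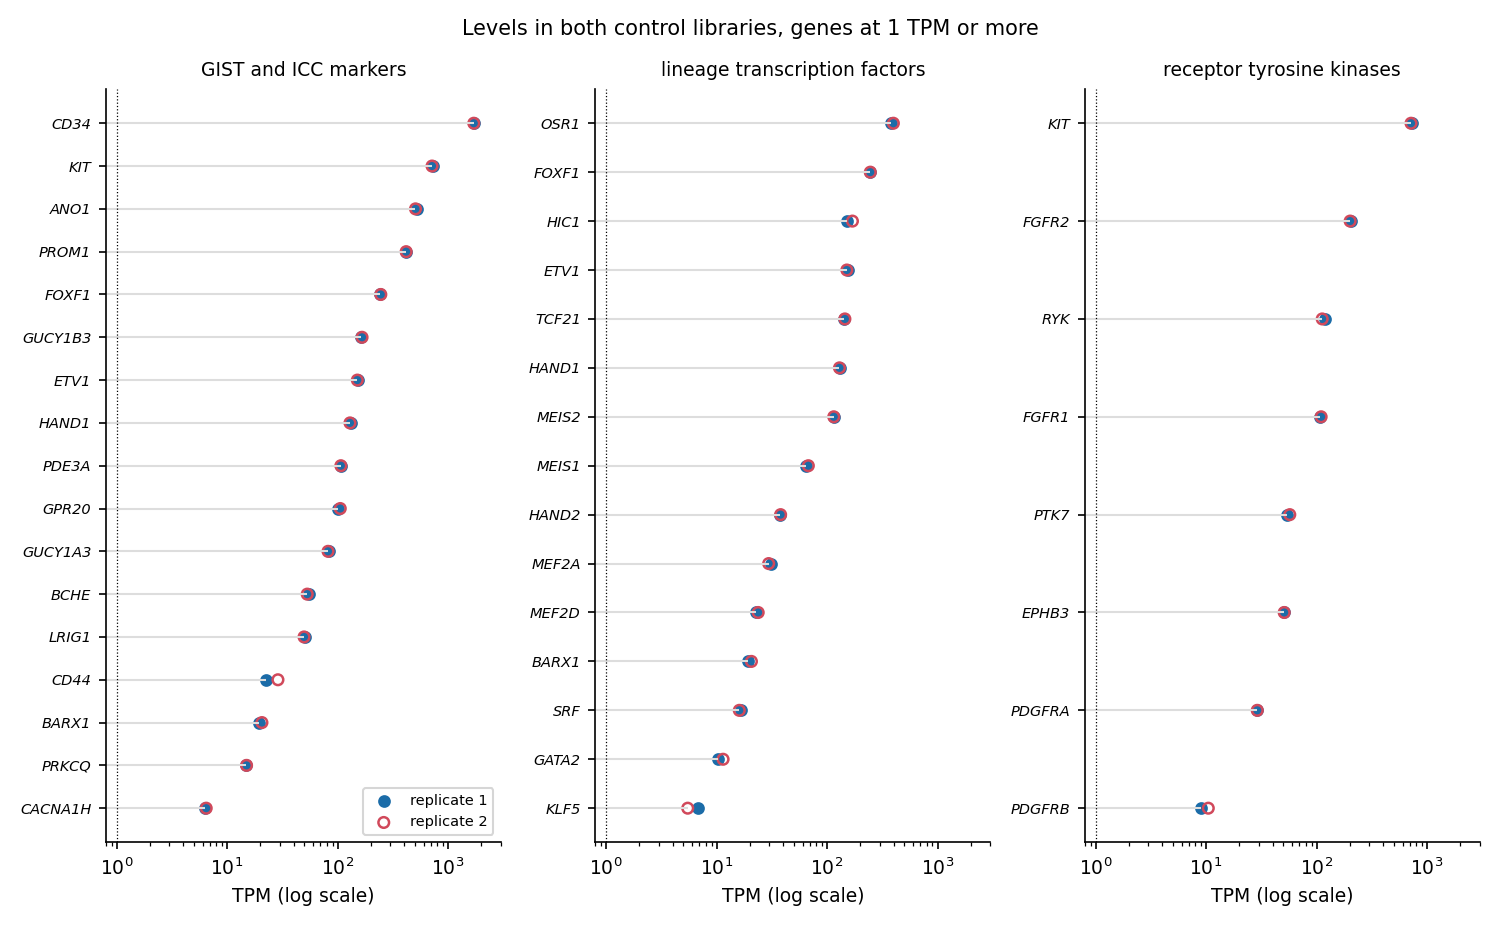
TPM on a log scale in control replicate 1 (filled) and replicate 2 (open) for genes at 1 TPM or more in both, showing the 17 detected GIST and interstitial cell of Cajal (ICC) markers and, in part, the lineage transcription factors and receptor tyrosine kinases described in the text. CD34 and KIT lead the markers, OSR1 leads the transcription factors, and KIT leads the receptors by over 3 times the level of FGFR2.

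The bases before 4 gene starts are shown, because these genes span the range from high to silent and from rich to poor in CG dinucleotides, a feature set beside the levels of all genes further on. They are from the RefSeq promoter table (GRCh38.p14), 250 bases up to the start, 5′ to 3′ on the gene's strand, with each CG dinucleotide in capitals. They lie at chr4:54657707-54657956 (KIT, plus strand), chr11:69985657-69985906 (ANO1, plus strand), chr10:6580647-6580896 (PRKCQ, minus strand) and chr11:69819417-69819666 (FGF3, minus strand).
KIT: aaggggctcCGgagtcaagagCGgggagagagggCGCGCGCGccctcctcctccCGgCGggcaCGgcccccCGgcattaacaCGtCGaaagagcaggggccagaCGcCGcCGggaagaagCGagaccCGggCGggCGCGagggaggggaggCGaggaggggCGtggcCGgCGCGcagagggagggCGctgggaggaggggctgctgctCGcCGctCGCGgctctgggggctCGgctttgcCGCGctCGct
ANO1: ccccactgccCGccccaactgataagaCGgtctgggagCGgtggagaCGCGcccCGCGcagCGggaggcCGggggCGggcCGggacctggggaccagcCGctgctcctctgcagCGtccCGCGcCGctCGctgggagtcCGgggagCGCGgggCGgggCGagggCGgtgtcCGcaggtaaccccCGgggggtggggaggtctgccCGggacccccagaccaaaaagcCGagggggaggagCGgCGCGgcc
PRKCQ: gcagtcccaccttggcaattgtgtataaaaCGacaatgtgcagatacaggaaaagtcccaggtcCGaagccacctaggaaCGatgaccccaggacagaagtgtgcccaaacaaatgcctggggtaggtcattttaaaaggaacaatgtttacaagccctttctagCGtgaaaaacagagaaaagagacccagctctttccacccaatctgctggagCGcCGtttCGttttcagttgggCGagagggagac
FGF3: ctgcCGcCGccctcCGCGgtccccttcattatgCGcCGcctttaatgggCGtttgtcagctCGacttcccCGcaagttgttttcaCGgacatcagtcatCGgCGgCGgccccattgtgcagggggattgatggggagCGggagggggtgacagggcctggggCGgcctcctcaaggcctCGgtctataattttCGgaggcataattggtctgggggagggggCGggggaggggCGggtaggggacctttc
The KIT stretch holds 34 CG dinucleotides, that of ANO1 30, that of silent FGF3 19 and that of PRKCQ 8. The RefSeq start used for ANO1 lies upstream of the gene's start in GENCODE release 29.

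Among the lineage factors listed, those of mesenchyme and gut wall were detected most often and had the highest levels. Of 44 such genes, 37 were detected (84.1%) and 8 reached 100 TPM, against 57.1% and 8.22% of protein-coding genes. The list holds GIST markers such as FOXF1, ETV1 and HAND1 and was chosen with earlier results of these data known. Its share is therefore a description and does not test the lineage. OSR1, a zinc finger gene of intermediate and lateral mesoderm, was highest at 380.1 and 398 TPM. After FOXF1 came the repressor gene HIC1 at 151 and 169.7 TPM, ETV1, the visceral mesenchyme factor TCF21 at 143 and 145 TPM and HAND1. Chosen after their values were seen, the homeobox genes MEIS2 and MEIS1, whose products bind DNA together with HOX proteins, had 116 and 115 and 64.5 and 67.7 TPM. HAND2, also so chosen, had 37.8 and 38 TPM, below HAND1. The list was not complete: MEOX1 and PRRX2 had 0 counts, PRRX1, a limb mesenchyme factor, had 0.02 and 0.02 TPM, and PBX3 had 0.23 and 0.31 TPM.

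Factors of other lineages were mostly below detection. The shares detected were 36.4% (muscle), 14.3% (neural), 25% (blood and endothelium), 17.6% (epithelium) and 0% (pluripotency), against 57.1% of protein-coding genes. Silent in the same order were 18.2%, 42.9%, 50%, 52.9% and 50%, against 24.1% of protein-coding genes. Of 11 muscle factors 4 were detected, led by MEF2A at 31 and 29.6 TPM, MEF2D at 22.9 and 23.8 TPM and SRF, the serum response factor, at 16.5 and 16.1 TPM. MYOCD, the smooth muscle co-activator, had 3 counts in both libraries together, and MYOD1 and MYOG had 0. Of 14 neural factors 2 were detected, MITF at 4.52 and 3.4 TPM and TFAP2A at 3.21 and 2.7 TPM, and SOX10 had 0 counts. Of 12 blood and endothelial factors 3 were detected, GATA2 at 10.3 and 11.4 TPM, SOX18 at 3.43 and 4.25 TPM and the B cell factor PAX5 at 2.85 and 2.93 TPM, while SPI1, TAL1 and FLI1 had 0 counts. Of 17 epithelial factors 3 were detected, KLF5 at 6.76 and 5.48 TPM, CDX2 at 3.03 and 2.21 TPM and FOXA1 at 1.91 and 1.24 TPM. HNF4A and SOX9 had 0 counts. None of 6 pluripotency factors was detected, and NANOG had 0 counts. In the order of all 49 detected factors, 25 of 48 neighbouring pairs overlapped in their values, so ranks within the lower range are not resolved, as for GATA2 and MKL1 near 10 TPM.

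HOX genes, which record position along the body axis, were detected in a mixed pattern within clusters. Of 39 genes 21 (53.8%, close to the 57.1% of all protein-coding genes) were at 1 TPM or more in both libraries, 3 of 11 in HOXA, 5 of 10 in HOXB, 7 of 9 in HOXC and 6 of 9 in HOXD. HOXC10 had 98.5 and 97.3 TPM and HOXA11 95.1 and 98.4 TPM. HOXD8 had 44.2 and 42.7 TPM, HOXD1 29.2 and 29.4 TPM, HOXD4 26.7 and 27.1 TPM and HOXD13 22.7 and 23.5 TPM. High and low genes stood side by side: HOXA10, next to HOXA11 and chosen after its value was seen, had 0.73 and 1.26 TPM, and HOXD12, next to HOXD13, had 0 counts.

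Among 58 receptor tyrosine kinases 31 were detected (53.4%), close to the share of all protein-coding genes, and 4 reached 100 TPM. After KIT came FGFR2 at 205 and 201 TPM, RYK, a Wnt receptor, at 119.7 and 112 TPM and FGFR1 at 108 and 110.0 TPM. PTK7 had 54.4 and 57.2 TPM and the ephrin receptor gene EPHB3 50.5 and 50.9 TPM. PDGFRA, the neighbour and relative of KIT that is mutated in some GISTs, had 29.1 and 29.1 TPM, and PDGFRB had 9.04 and 10.5 TPM. Silent at 0 counts were 11 receptors, among them ALK, ERBB4, NTRK3, ROS1, TEK and TIE1. Chosen after their values were seen, MET had 0.05 and 0.05 TPM, AXL 0.11 and 0.25 TPM and IGF1R 0.15 and 0.49 TPM. Of the 30 steps in the order of detected receptors, 12 overlapped, all of them from PDGFRA downward.

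Of 70 ligands of these receptors 29 were detected (41.4%, against 57.1% of protein-coding genes), and 1 stood over 100 TPM. IGF2, an imprinted insulin-like growth factor next to H19, had 1415 and 1388 TPM. The ephrin gene EFNB2 had 76 and 74.7 TPM, VEGFB 65.2 and 64 TPM, the neurotrophic factor gene GDNF 31.9 and 31.8 TPM, FGF2 24.3 and 24.3 TPM and EFNB1 23.6 and 23.2 TPM. KITLG, the ligand of KIT, chosen after its value was seen, had 11.2 and 11.4 TPM. Both receptor and ligand of the KIT and FGF2 systems were therefore detected in the same culture, with the receptors at the higher level. HGF, IGF1, PTN, FGF8 and INS had 0 counts, as did FGF3 and FGF4.

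The listed genes of signalling below KIT were nearly all detected. Whether they act below KIT in these cells was not tested. Of 67 genes of KIT signalling 63 were detected (94.0%, against 57.1% of protein-coding genes), and 11 were at 100 TPM or more (16.4%, against 8.22%). Of 18 adaptors and phosphatases 17 were detected, led by SHC1 at 162 and 168 TPM, GRB2 at 119 and 105 TPM, PLCG1 at 89.7 and 81.7 TPM and the phosphatase gene PTPN11 at 76.4 and 78 TPM. INPP5D, the phosphatase SHIP1 of blood cells, was the exception with 0 counts. All 20 genes of the RAS and ERK group were detected. The feedback inhibitors SPRY4, SPRY2 and SPRY1 led it with 170.3 and 173, 154 and 149 and 116 and 120.5 TPM, and the group also held MAP2K2 at 116 and 119 TPM and the ERK phosphatase gene DUSP6 at 104 and 109 TPM. Of 17 genes of PI3K and AKT 14 were detected. AKT1 had 209.5 and 206 TPM and AKT2 85.3 and 85.3 TPM. The catalytic subunit gene PIK3CB had 56.2 and 61.7 TPM, while PIK3CD had 0.07 and 0.38 TPM and PIK3CG 0.06 and 0.17 TPM. All 12 genes of JAK and STAT were detected, with JAK1 at 119 and 116 TPM.

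Genes that are lost or altered in GIST were mostly detected. The SDH subunit genes were all detected, SDHA at 174 and 166 TPM, SDHB at 158 and 163 TPM, SDHC at 249.7 and 249.4 TPM and SDHD at 73 and 75.9 TPM, as were the assembly factors SDHAF2 at 122 and 117 TPM and SDHAF1 at 16 and 16.2 TPM. Of 22 tumour suppressor and cell cycle genes 17 were detected (77.3%, against 57.1% of protein-coding genes). CDK4 had 270.1 and 268 TPM, the inhibitor gene CDKN2A 136 and 151 TPM, CCND1 106 and 99.3 TPM, CCND3 93 and 93.2 TPM and CCND2 76 and 72 TPM. CDKN1B had 71.8 and 73.8 TPM, RB1 45.2 and 45.6 TPM, ATRX 40.5 and 35.4 TPM, MAX 37.9 and 34.5 TPM, MDM2 30.3 and 35.9 TPM, MGMT 30.5 and 32 TPM, MTAP 29.1 and 32.5 TPM and SETD2 20.1 and 21.6 TPM. NF1 had 7.77 and 8.06 TPM and DEPDC5 5.54 and 6.63 TPM. CDKN2B, next to CDKN2A, was near the detection level at 1.05 and 1.43 TPM. TERT, the telomerase catalytic subunit, had 0.71 and 0.98 TPM, and CDKN1A, a cell cycle inhibitor, had 0.63 and 0.65 TPM. DMD, the dystrophin gene, had 0 counts in both libraries, and CDK6 had 1 count.

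At 11q13, where the FGF genes lie between CCND1 and ANO1, silent and high genes alternated. FGF3 and FGF4 had 0 counts, and FGF19 had 4 counts in both libraries together (0.07 and 0.03 TPM). CCND1, 178 kb from the FGF3 start, had 106 and 99.3 TPM, and ORAOV1 (now LTO1), which overlaps the end of CCND1, had 13.4 and 11.9 TPM. On the other side ANO1, whose GENCODE start is 259 kb away and whose RefSeq start printed above is nearer, was the highest gene of the locus. CTTN, a cortical actin binding protein, had 168 and 168 TPM, the death domain adaptor gene FADD 49.3 and 53.3 TPM and PPFIA1 34.5 and 30.6 TPM. Farther out IGHMBP2 had 15.4 and 12.7 TPM, MRGPRF 7.58 and 7.91 TPM and TPCN2 5.98 and 6.87 TPM, while MYEOV had 6 counts and MRGPRD 0. SHANK2 was the least reproducible, at 0.92 and 2.68 TPM. The non-coding RP11-626H12.1, chosen after its value was seen and 167 kb from the FGF3 start, begins on the same strand as ANO1 inside the ANO1 stretch printed above and so may not be a separate gene. It had 75.3 and 80.00 TPM. Of the 15 listed genes 9 were detected, 60% against 57.1% of protein-coding genes. The strand setting is not stated, so where genes on both strands overlap, their reads may be mixed.

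**Figure D3:**
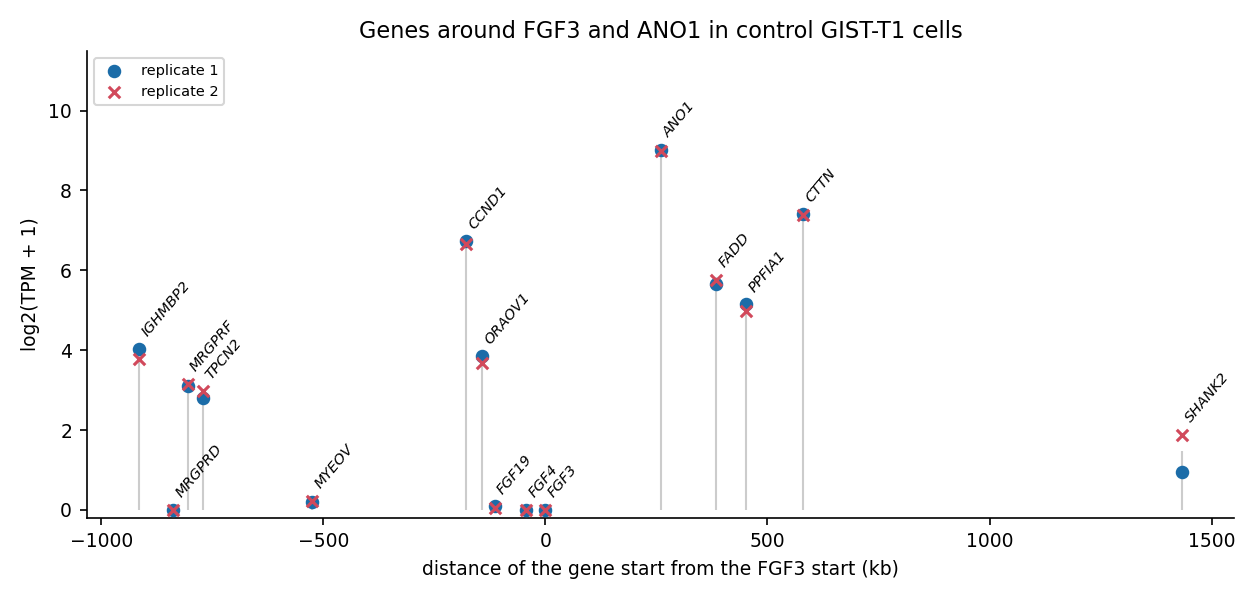
Level of the 15 listed genes at 11q13 in both control libraries, log2(TPM + 1), against the distance of each gene's start from that of FGF3 in kb. FGF3, FGF4 and FGF19 lie at the baseline between CCND1 and ANO1, which stand at 105.5 and 520.1 TPM in replicate 1.

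ANO1 stood far above every other listed ion channel. Of 125 channel genes 49 were detected (39.2%, below the 57.1% of all protein-coding genes), 41 were silent, and 2 reached 100 TPM. Among 30 chloride channel genes 15 were detected, with ANO6 at 35.5 and 33.3 TPM and the lysosomal CLCN7 at 32.4 and 29.1 TPM next after ANO1, while ANO3, ANO4, ANO5 and CFTR had 0 counts. Of the store-operated and receptor-operated calcium channels 12 of 13 were detected, the most complete channel group. The calcium sensor gene STIM2 had 194 and 194 TPM, more than its relative STIM1 at 30.4 and 33.1 TPM, and the pore genes ORAI1 and ORAI2 had 65.3 and 65.3 and 58.2 and 62.5 TPM. Of 10 voltage-gated calcium channel pores 4 were detected, CACNA1H, CACNA1C at 5.09 and 5.42 TPM, CACNA1G at 3.53 and 3.74 TPM and CACNA1D at 1.94 and 2.46 TPM. Sodium, HCN and leak channels had 2 of 21 detected, ASIC1 at 5.65 and 5.34 TPM and HCN2 at 1.06 and 1.21 TPM. Of 35 TRP, PIEZO and P2X genes 12 were detected, led by the mechanosensitive channel PIEZO1 at 52.5 and 46.1 TPM and by TRPA1, a channel for chemical irritants, at 23.7 and 24.9 TPM. Of 16 connexins 4 were detected, among them GJB2 at 22.1 and 21.1 TPM, GJC1 at 4.42 and 4.55 TPM and GJA3 at 1.45 and 1.59 TPM, while 8 were silent. Of 97 potassium channel genes 22 were detected and 32 silent. KCNH2, the hERG channel, had 57.6 and 57.5 TPM, and KCNMB2, a subunit of large-conductance channels, followed at 12.4 and 13.4 TPM.

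G protein-coupled receptors were detected for 33 of 87 genes (37.9%, against 57.1% of protein-coding genes). The adhesion receptor ADGRL2 had 216 and 212 TPM, the sphingosine phosphate receptor S1PR3 126 and 124 TPM and GPR20 followed. The Wnt receptor FZD8 had 57.5 and 60.3 TPM, the serotonin receptor HTR2B 45.4 and 48.8 TPM and the chemokine receptor ACKR3 45.2 and 46.1 TPM. Of the endothelin receptors EDNRA, chosen after its value was seen, had 24.1 and 23.5 TPM and EDNRB 0 counts. The muscarinic receptor gene CHRM2, HTR2A, HTR4, DRD1 and LPAR6 also had 0 counts.

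The matrix was led by a few genes of very high level. Of 79 matrix genes 46 were detected (58.2%), a share like that of all protein-coding genes, and 15 (19%) were at 100 TPM or more, against 8.22%. The elastic fibre gene EMILIN1 had 727 and 773 TPM, MFAP4 518 and 509.7 TPM, the collagen-binding SPARC 186 and 181 TPM, FBN2 182 and 178 TPM, ELN, which encodes elastin, 172 and 178 TPM and FBN1 165 and 164 TPM. Genes of elastic fibres thus took 5 of the 6 highest places among the 32 listed genes of glycoproteins and elastic fibres. That list was made by hand to include elastic fibre genes, and FBLN5, also listed there, had 0 counts. The proteoglycan LUM had 423 and 420.3 TPM, SDC3 288 and 303 TPM, SDC2 185 and 191 TPM and the glypican GPC4 143 and 147 TPM, whereas SDC4 had 0 counts. Among proteases and inhibitors MMP2, a gelatinase, had 295 and 302 TPM and TIMP1 81.8 and 83.5 TPM, and LOX, a collagen cross-linker, had 0.04 and 0.10 TPM.

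Collagens were uneven. COL3A1 had 1003 and 1009 TPM, COL6A1 104 and 104 TPM and the basement membrane chains COL4A1 and COL4A2 83.4 and 83.8 and 47.6 and 47.9 TPM. COL1A1 had 5.86 and 6.36 TPM and COL1A2, the partner chain of type I collagen, had 0 counts. In all 18 of 44 collagen genes were detected (40.9%, against 57.1% of protein-coding genes). Of 12 laminin chains 6 were detected, LAMB1 at 401 and 413 TPM, LAMB2 at 90.8 and 89.96 TPM, LAMA5 at 59.3 and 54.7 TPM and LAMC1 at 42.9 and 47 TPM, so each of the alpha, beta and gamma classes had a chain. Of 26 integrin subunits 14 were detected, led by ITGB1 at 255 and 243 TPM, ITGB5 at 242 and 230.0 TPM and ITGA5 at 76.9 and 74.9 TPM.

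Smooth muscle genes were detected in the same share as all protein-coding genes, 8 of 14 or 57.1%. CALD1, caldesmon, had 2398 and 2375 TPM, ACTA2 239 and 243 TPM, the smoothelin gene SMTN 156 and 159 TPM and TPM1 98.3 and 103 TPM. MYH11, the smooth muscle myosin heavy chain, had 0.11 and 0.10 TPM, and CNN1, DES and MYL9 had 0 counts. VIM, vimentin, had 353 and 356 TPM.

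Markers of other cell types were detected for 15 of 86 genes (17.4%), and 46 (53.5%) were silent, against 24.1% of protein-coding genes. No endothelial, neuronal, glial, hepatocyte, striated muscle or pluripotent marker was detected, in 9, 8, 6, 6, 6 and 6 genes. PTPRC, CD3E, PECAM1, CDH1, SOX10 and ALB had 0 counts. Of 10 blood markers 2 were detected, among them CD52 at 4.44 and 2.06 TPM, and their list summed to 10.0 and 6.81 TPM. Of 8 mast cell markers, cells that also depend on KIT, 1 was detected, GATA2, and CPA3, MS4A2 and TPSB2 had 0 counts. Of 6 melanocyte markers 2 were detected, PMEL at 3.91 and 4.56 TPM and MITF, with TYR at 0. Epithelial markers were KRT18 at 244 and 252 TPM, KRT8 at 23.6 and 24.7 TPM and CDX2, with EPCAM below detection at 0.89 and 0.96 TPM. Fibroblast markers were the exception with 7 of 9 detected: THY1, a surface glycoprotein, had 805 and 819 TPM, and COL3A1 and LUM were as above, while DCN had 1.42 and 1.67 TPM and FAP and COL1A2 had 0 counts.

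Several large families of tissue-restricted genes had no detected member, and most of their genes were silent, in part as unbroken stretches of chromosome. None of 381 olfactory receptors, 94 keratin-associated proteins, 37 beta-defensins, 24 bitter taste receptors and 57 cancer-testis genes of the MAGE, GAGE, PAGE, XAGE and SSX families was detected, and 377, 93, 37, 14 and 53 of them had 0 counts, against 24.1% of protein-coding genes. Keratins had 4 of 55 detected and 42 silent. Of 53 clustered protocadherins, neuronal adhesion genes, 12 were detected and 1 was silent, led by PCDHGC3 at 70.1 and 70.6 TPM. Along the chromosomes there were 72 runs of at least 8 consecutive silent protein-coding genes, with 1022 genes in all, 21.3% of the silent ones. Olfactory receptors made up 318 of them and keratin-associated proteins 82. The longest run, on chromosome 17 from 40860943 to 41624842 (hg38), held 55 genes, 34 of them keratin-associated proteins and 21 keratins. The next, on chromosome 1 from 152153595 to 153541765, held 52 genes, with 18 late cornified envelope and 10 small proline-rich genes of the skin barrier. A run of 49 genes on chromosome 11 from 55367884 to 57237314 held 45 olfactory receptors.

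**Figure D4:**
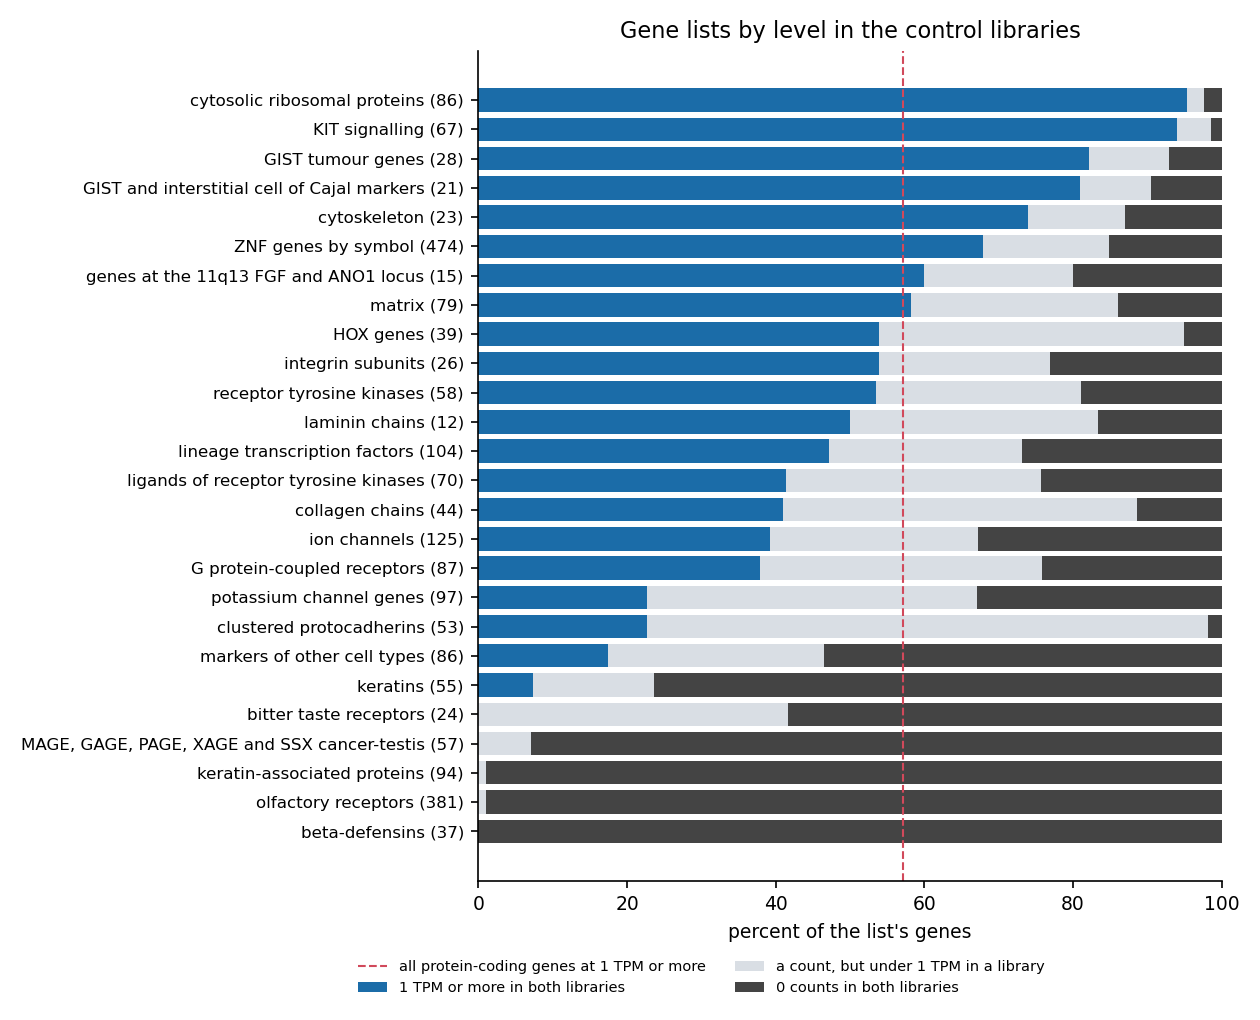
Share of each list's genes (number in parentheses) that were at 1 TPM or more in both control libraries (blue), had a count but were under 1 TPM in a library (grey) or had 0 counts in both (black). The dashed line is the 57.1% of all protein-coding genes that were detected, which KIT signalling exceeds at 94.0% and olfactory receptors do not approach.

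The share of detected genes differed with promoter sequence. For 15286 protein-coding genes matched by symbol to the RefSeq promoter table (GRCh38.p14), the ratio of observed to expected CG dinucleotides was computed in the 300 bases from 250 before to 50 after the first listed start. CpG-rich promoters are common at genes used by most cell types. Of 10178 genes with a ratio of 0.6 or more, 78.4% were detected (Wilson 95% interval 77.6% to 79.2%, over genes) and 8.43% were silent. Of 5108 genes below 0.6, 24.9% were detected (23.7% to 26.1%) and 49.6% were silent. The share detected climbed with each bin of the ratio, from 13.5% under 0.2 to 86.6% at 1 or more. The letters TATAAA, searched on both strands, stood in 1467 windows (9.60%), and 31.9% of those genes were detected, against 63.5% of the rest. The difference was there within both classes: 63.9% against 79.1% at a ratio of 0.6 or more, and 15.7% against 27.1% below it.

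The genes printed above fall on both sides of these shares. KIT (ratio 0.95) and ANO1 (0.84) were CpG-rich and high. FGF3 (0.82) was CpG-rich and silent, 1 of 858 such genes, which also included ALK, UCHL1, SDC4, TAL1, EDNRB and DMD. PRKCQ (0.56) was CpG-poor, held TATAAA in its window and was detected. CpG-poor genes of high level, chosen after their values were seen, were BST2 at 477 and 486 TPM, LGALS3BP at 399.6 and 408 TPM and SPARCL1 at 399.7 and 397 TPM, all with a ratio under 0.2. A match of letters is a description of the window, not a site in use.

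**Figure D5:**
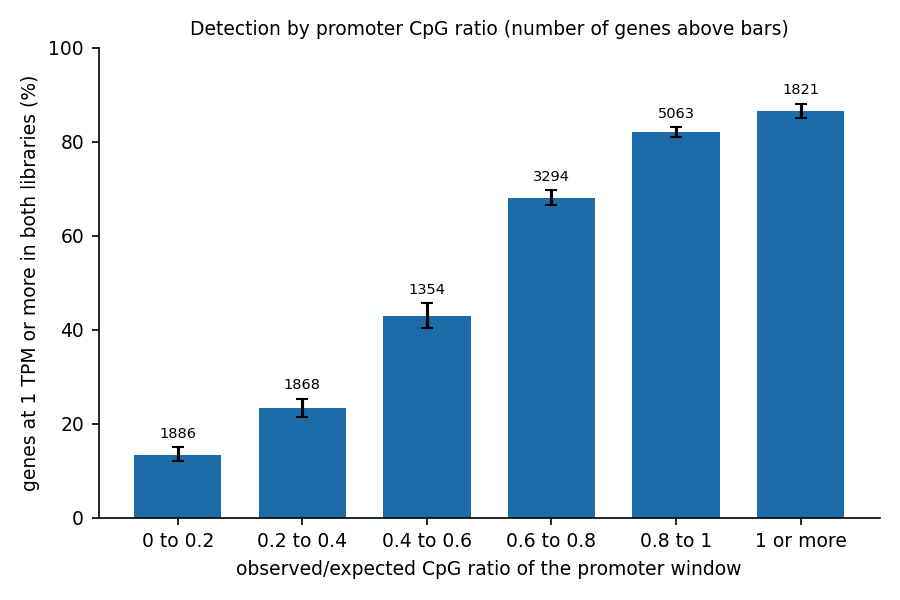
Percent of protein-coding genes at 1 TPM or more in both control libraries by the observed/expected CpG ratio of the RefSeq promoter window, with Wilson 95% intervals over genes and the number of genes above each bar. The share runs from 13.5% in the lowest bin to 86.6% in the highest.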

How the data were processed

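RNA of control GIST-T1 cells was analysed from 2 libraries. The tools were RSEM 1.3.2, STAR 2.5.3 and DESeq2 1.38.3 on hg38, per the submitters' processing notes. Of the annotation release and strand setting nothing is said in the labels. The authors deposited expected counts, RSEM's estimates per gene that are not normalised, and TPM, corrected for length, which has the same total in every library and keeps no depth. Of the values, 12.8% and 11.8% were not whole. A series table was not used, since its 10 value columns carry names that are not in the labels.

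Levels are deposited TPM, given for both libraries or as mean ± SD with n = 2. No test between groups was run, so no p-value is given. Gene types and positions came from GENCODE release 29, matched by Ensembl identifier for 58261 of 58381 rows. Promoter windows came from RefSeq. Folds between libraries used a pseudocount of 1. edgeR 4.0.16 gave TMM factors for an alternative. Scripts ran in Python 3.11.15 and R 4.3.3 and were tested on simulated data. Depth was 30.8 and 20.1 M counts, and 3 counts were taken as the floor.

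Named were the given markers, the 20 highest nuclear genes, the 6 highest long non-coding RNAs, per list up to 6 of the highest and 6 of the silent or lowest genes, all markers, tumour and 11q13 genes, and the 10 largest library differences in each direction, in part; some genes under this rule are not reported here. Members and lists were chosen with earlier results of these data known. Alternatives were other thresholds, pseudocounts, filters, scalings and single libraries.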

Additional observations from a re-analysis of the deposited data

How the results depend on the processing

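The number of detected genes stayed within 1.5 times of 13070 under each alternative, from 10167 at 5 TPM to 14411 at 0.5 TPM, and single libraries gave 13575 and 13610. Of 108 counts for 27 lists, 99 stayed within 1.5 times and 9 did not, 7 of them at 5 TPM, 2 at 0.5 TPM and 0 in a single library. The 100 highest genes held 32.0% of TPM, 24.5% once mitochondrial genes were left out and 19.1% of expected counts. The 74 genes over 2-fold apart between libraries became 375 with no filter on low values, 16 at a mean of 20 TPM, 6 among protein-coding genes (an alternative chosen after seeing the data), and 1 with TMM-scaled or 1 with median-of-ratios counts, where the filter is a mean of 5 CPM, which 2 of the 74 pass. Promoters with a CpG ratio of 0.6 or more were detected 53.5 percentage points more often than others, 45.1 points at a ratio of 0.75, 49.8 points at 5 TPM, and, both chosen after seeing the data, 60.3 points with each gene's most CpG-rich start and 61.1 points for genes with 1 start. Single libraries gave 53.2 and 53.5 points. The 72 silent runs became 149 with runs of 5 genes, 81 below 0.1 TPM, and 77 and 79 in single libraries. No paired analysis was possible because every result is a level within 1 group and comes from no test. The median difference between libraries was 12.4% for protein-coding genes between 1 and 10 TPM and 1.37% at 1000 TPM or more.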

Other observations

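Further gene groups were looked up after the values above were seen, so their choice is not independent of them. CTCF, the insulator protein, had 59 and 56.7 TPM, and the cohesin genes RAD21, SMC1A and SMC3, whose ring CTCF stops on DNA, had 229.7 and 229, 124 and 118 and 93.3 and 95.6 TPM. All 20 genes of that group were detected, against 57.1% of protein-coding genes. They included the DNA methyltransferase gene DNMT1 at 69.1 and 70.8 TPM and, lowest, the germline paralogue CTCFL at 1.86 and 1.53 TPM. All 12 cell cycle genes were detected with a median of 166 TPM, among them MKI67, a marker of dividing cells, at 167 and 163 TPM. Of 16 imprinted genes 9 were detected (56.25%, against 57.1% of protein-coding genes): PLAGL1 had 281 and 282 TPM and PEG10 240.1 and 232 TPM beside H19 and IGF2, while PEG3, NDN, SNRPN and MAGEL2 had 0 counts.

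Within 2 groups, 1 or 2 genes stood far above the other members listed. In the plasminogen system PLAT had 3411 and 3403 TPM, but ANXA2 and S100A10, which together form its cell surface receptor, had 0.20 and 0.49 and 1.73 and 0.80 TPM, with 12 and 24 counts in both libraries together. Of 12 chemokines 4 were detected (33.3%, against 57.1% of protein-coding genes). They were XCL1 and XCL2 as above, CCL2 at 16.9 and 17.9 TPM and CXCL12 at 8.23 and 6.8 TPM. Another 7, among them CXCL8 and CCL5, had 0 counts.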
